A study of Mus musculus with 18 samples.

Results

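The genes described here encode the enzymes of glycolysis and gluconeogenesis, with the isozymes and the regulators that steer both routes, in mouse kidneys injured by ischemia and reperfusion. They were taken by name from a list of 34 genes, all of which were found among the 45706 genes counted. Of the 34 genes, 9 act in glycolysis only, 4 make or break down the regulator fructose 2,6-bisphosphate, 11 catalyse the reversible steps used in both directions, 3 interconvert lactate and pyruvate, and 7 act in gluconeogenesis or in the release of free glucose. All mice were adult male littermates, C57BL/6 by their labels. Both kidneys were made ischemic for 22.5 min, and tissue was taken at 12 h of reperfusion. The KO mice carried a floxed Cxcl12 or a floxed Myc gene together with the Pax8rtTA and TetOCre transgenes, so that doxycycline turns on the recombinase in tubule cells. The controls carried the same floxed gene and Pax8rtTA but no TetOCre, and were given doxycycline as well. The Cxcl12 cohort had 5 KO and 3 control kidneys and the Myc cohort 5 of each, with one library per kidney. RNA came from the whole kidney, so cells that do not express Pax8, and keep the gene in both groups, are part of every sample. Uninjured kidneys were not analysed here. In such bulk RNA, fewer cells of a type and less RNA per cell cannot be told apart.

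Glycolysis splits glucose into pyruvate, and its committed steps are run by hexokinase, phosphofructokinase and pyruvate kinase. Gluconeogenesis runs the other way and bypasses those steps with phosphoenolpyruvate carboxykinase, fructose bisphosphatase and glucose-6-phosphatase. In the kidney the proximal tubule makes glucose and burns little of it, whereas distal segments, and blood and vessel cells, rely more on glycolysis. MYC is a transcription factor that binds CACGTG motifs, and glycolytic enzymes are among its textbook target genes. CXCL12 is a chemokine that attracts cells bearing the receptor CXCR4.

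Each library had 12918220 to 29749500 reads on genes, and all 34 genes passed the filter on low counts in both cohorts. The targeted genes were checked first. Levels are given as CPM, the read count of a gene relative to a library size scaled by the TMM method. Myc averaged 94.4 ± 14.2 CPM over the controls of its cohort and 30.9 ± 3.96 CPM over the KO kidneys (SD, n = 5 each). Cxcl12 averaged 53.8 ± 7.86 CPM over its 3 controls and 32.4 ± 6.03 CPM over its 5 KO kidneys (SD). For both targets every KO kidney lay below every control kidney. In 6 kidneys less than 5% of the reads were unmapped. They were 2 each of the Cxcl12 KO, Myc KO and Myc control groups and 0 of the Cxcl12 controls. These 6 kidneys also had the most reads on genes, 22437067 to 29749500 against 12918220 to 18006784 in the other 12. Fits by mapping group are therefore also fits by depth.

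The levels of the genes spanned several orders of magnitude when counts were divided by exon length. Pck1, the cytosolic phosphoenolpyruvate carboxykinase that commits carbon to glucose synthesis, was the highest of the 34 genes, with a mean over all 18 kidneys of 814 CPM per kilobase of merged exons. It was followed by Ldhb, the lactate dehydrogenase subunit of oxidative tissues, at 323 CPM per kilobase, by Fbp1, the fructose bisphosphatase of liver and kidney, at 288, and by Aldoa, an aldolase of the reversible steps, at 285 on the same scale. The order depends on the length used. Per kilobase of the longest transcript, Pck1 was still the highest of the 34 genes at 1024, but Aldoa came second at 535, ahead of Ldhb at 388 and Fbp1 at 331. Per kilobase of merged exons, as in all levels that follow, Ldha, the subunit of glycolytic tissues, was at 130 CPM per kilobase. Of the phosphoglycerate mutases of the reversible steps, the muscle type Pgam2 was at 32.5 and the widespread type Pgam1 at 2.98 CPM per kilobase. The enzymes that act in glycolysis only all lay below Pck1 and Fbp1 in these overall means. The other genes of gluconeogenesis were lower, G6pc at 65.7, Slc37a4 at 39.1, G6pc3 at 21.0, Fbp2 at 13.2 and Pck2 at 3.33 CPM per kilobase. Of these only G6pc lay above Pkm. Pkm, the pyruvate kinase of most tissues, was at 58.7 CPM per kilobase, Hk1, the housekeeping hexokinase, at 18.9, and Hk2, the inducible hexokinase, at 3.84. Pfkl and Pfkp, the liver and platelet types of phosphofructokinase, were at 8.85 and 7.58 CPM per kilobase, and Pfkm, the muscle type, at 6.04. The lowest were Hk3, the hexokinase known from white blood cells, at 0.438 and Pfkfb1 at 0.410 CPM per kilobase.

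**Figure D1:**
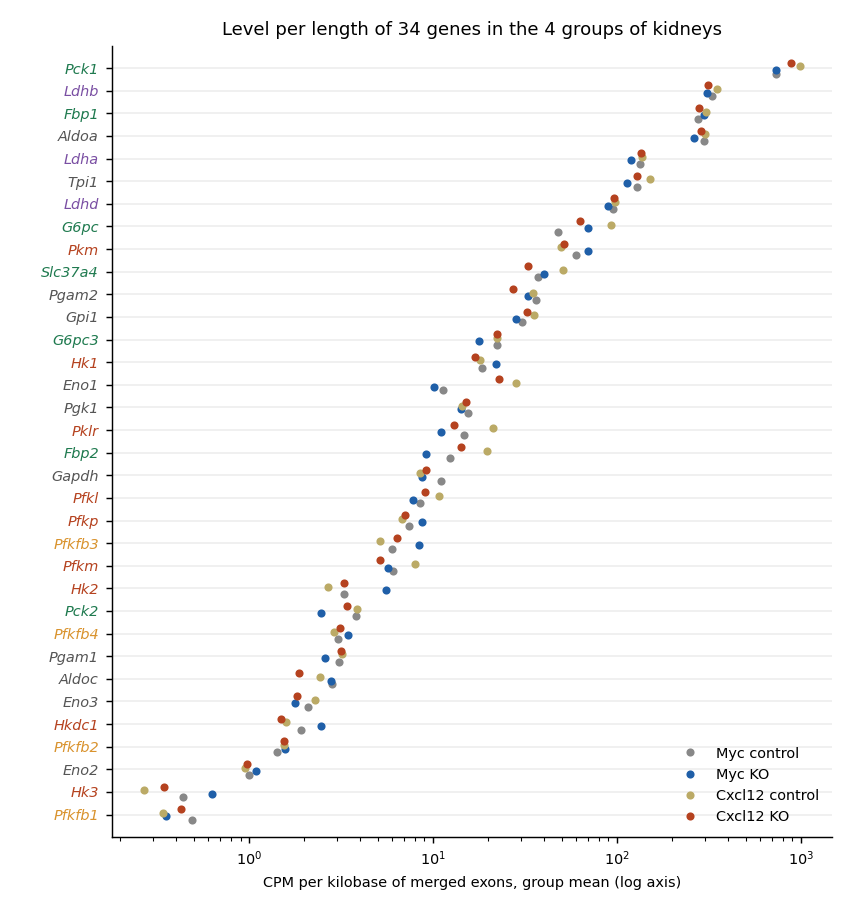
Level of each of the 34 genes on the horizontal log axis, in CPM per kilobase of merged exons, as the mean of each of the 4 groups of kidneys (5 Myc control, 5 Myc KO, 3 Cxcl12 control, 5 Cxcl12 KO). Gene names are coloured by role: red glycolysis only, orange regulators, grey reversible steps, violet lactate and pyruvate, green gluconeogenesis. Pck1 lies at the top with an overall mean of 814 and Pfkfb1 at the bottom with 0.410, and the 4 groups lie close together for most genes beside that spread.

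Some of these levels are lower limits. The files count reads that align to one place, so genes with near-identical copies elsewhere lose reads. For Gapdh, which oxidises glyceraldehyde 3-phosphate, 88% of the transcript has a copy of at least 97% identity, in 49 other genes, and its level was 9.46 CPM per kilobase. The share with such a copy was 85.6% for Eno1, 76.8% for Ldhb, 68.8% for Pgk1, 65.5% for Pkm, 45.5% for Gpi1 and 43.1% for Pgam1. Reads that lie in exons of more than one gene are set aside by the counting, here without regard to strand. Ldhd, the mitochondrial D-lactate dehydrogenase, shares 42.2% of its exon length with exons of Znrf1 on the opposite strand, and its count rests on the remainder.

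The first comparison asked which of the 34 genes differed between Myc KO and Myc control kidneys. Pck2, the mitochondrial phosphoenolpyruvate carboxykinase, fell in Myc KO kidneys and was the 1 gene of the 34 that passed an adjusted p of 0.05 in edgeR's quasi-likelihood test. Among all 14936 genes tested 1.65% passed, and 1.29% passed and were lower in KO. Of the 34 genes, 20 had a log2 fold change below 0, and the median was -0.10, beside 50.1% below 0 and a median of -0.00083 for all genes. At an unadjusted p under 0.05 there were 8 of the 34 genes (23.5%), 4 lower and 4 higher in KO, against 21.9% of all genes tested.

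Pck2 had 16.6, 22.4, 20.0, 18.8 and 17.9 CPM in the 5 Myc KO kidneys and 30.8, 27.7, 23.4, 37.4 and 28.5 CPM in the 5 Myc control kidneys. No KO kidney reached the lowest control, with KO replicate 2 and control replicate 3 nearest to each other. The log2 fold change was -0.62 (SE 0.124, adjusted p = 0.0314 in edgeR), and an exact permutation test over all splits of the 10 kidneys gave p = 0.00794, the smallest this design allows. Lower without overlap were 3.74% of all genes tested, and Pck2 was the 1 such gene of the 34. The 34 genes held 0 that were higher without overlap, against 2.12% of all genes. With single kidneys left out, the adjusted p of Pck2 lay between 0.0149 and 0.0944 and was under 0.05 in 2 of 10 fits, those without control replicate 1 or 3. In the 3 KO and 3 control kidneys with at least 5% unmapped reads the log2 fold change was -0.68 (adjusted p = 0.0742 in edgeR). The cytosolic enzyme Pck1 averaged 2497 ± 411 CPM in Myc KO against 2492 ± 886 CPM in Myc control kidneys (SD, n = 5 each). Pck2 made up 0.341% ± 0.0543 of the summed per-length level of both in KO and 0.543% ± 0.105 in control kidneys.

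The remaining genes of gluconeogenesis went in different directions in Myc KO kidneys and did not pass in edgeR. G6pc, the glucose-6-phosphatase of liver and kidney that frees glucose, had 112, 171, 201, 177 and 179 CPM in KO and 82.1, 103, 126, 79.6 and 188 CPM in control kidneys. The groups overlapped through KO replicate 1 and control replicate 5, and the log2 fold change was 0.54 (SE 0.225, adjusted p = 0.193 in edgeR). G6pc3, the glucose-6-phosphatase found in all tissues, had 39.7 ± 4.64 CPM in KO and 49.3 ± 4.92 CPM in control kidneys (SD, n = 5 each), with a log2 fold change of -0.31 (SE 0.0968, adjusted p = 0.107 in edgeR and 0.0435 in DESeq2). With the mapping group as a term its adjusted p in edgeR was 0.017. The per-length share of G6pc in the sum of both was 79.0% ± 5.73 in KO and 67.0% ± 7.48 in control kidneys, with ranges of 69.3% to 83.7% and 57.2% to 76.6%. Fbp2, the muscle type of fructose bisphosphatase, had a log2 fold change of -0.43 (SE 0.180, adjusted p = 0.192 in edgeR), and Fbp1 one of 0.12 (SE 0.128). Slc37a4, the carrier that brings glucose 6-phosphate to the glucose-6-phosphatase, stood at 0.11 (SE 0.0991).

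Among the genes of glycolysis only, 6 of 9 lay above 0 in Myc KO kidneys, with a median log2 fold change of 0.22, and 0 of 9 passed in edgeR (2 at an unadjusted p under 0.05, 1 in DESeq2 and 0 in limma voom). Hk2 had 31.4, 30.5, 30.7, 32.6 and 40.9 CPM in the 5 Myc KO kidneys and 16.4, 17.5, 30.7, 11.8 and 21.7 CPM in the 5 Myc control kidneys. Control replicate 3 lay inside the KO range and the other 4 controls lay below it. The log2 fold change was 0.75 (SE 0.203, adjusted p = 0.0813 in edgeR). It was 0.98 without control replicate 3, and the adjusted p in edgeR was then 0.0127. That fit called 877 of all genes, against 246 in the main fit. It was the 1 of 10 fits with a single kidney left out in which Hk2 passed. Over these fits the adjusted p of Hk2 in edgeR reached 0.189. Without KO replicate 5, the highest kidney, the log2 fold change was 0.67 with an adjusted p of 0.151 in edgeR. The gene that DESeq2 placed past the threshold was Hk2, with an adjusted p of 0.0098. Among all genes tested in this cohort DESeq2 also called many more than edgeR, with the counts given in the closing section. In the kidneys with at least 5% unmapped reads the log2 fold change was 0.90 for Hk2 and 0.57 for Pfkfb3. Neither passed there, with adjusted p of 0.0626 and 0.0817 in edgeR.

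Pfkfb3, the kinase that makes the phosphofructokinase activator fructose 2,6-bisphosphate, is shown kidney by kidney after its values were seen. It had 67.2, 52.7, 56.9, 68.3 and 71.3 CPM in Myc KO kidneys and 41.1, 47.6, 57.4, 34.4 and 45.5 CPM in Myc control kidneys. Here too control replicate 3 lay within the KO range and the other controls below it. The log2 fold change was 0.48 (SE 0.130, adjusted p = 0.0809 in edgeR and 0.0149 in DESeq2). Without control replicate 3 the edgeR values were 0.59 and 0.0228. That was the 1 of 10 fits with a single kidney left out in which Pfkfb3 passed. Over these fits its adjusted p in edgeR reached 0.185 and its log2 fold change fell to 0.40. Of the other 3 genes of that family, Pfkfb2 and Pfkfb4 lay above 0 and Pfkfb1, at 10 counts in its lowest Myc kidney, lay below 0.

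Hk1 had 176, 168, 200, 196 and 192 CPM in Myc KO and 140, 138, 193, 117 and 192 CPM in Myc control kidneys, and the groups overlapped. Its log2 fold change was 0.26 (SE 0.134, adjusted p = 0.283 in edgeR). As a share of the per-length sum of the 4 hexokinases counted, Hk1 took 71.6% ± 1.47 in KO and 76.7% ± 1.84 in control kidneys, and Hk2 took 18.2% ± 2.00 and 13.5% ± 2.16 (SD, n = 5 each). The Hk1 shares ran from 70.2% to 73.3% in KO and from 74.9% to 79.5% in control kidneys, without overlap, and the Hk2 shares overlapped. These shares were not tested.

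Pkm had 321, 304, 352, 401 and 361 CPM in Myc KO and 217, 290, 351, 231 and 410 CPM in Myc control kidneys. The controls spanned the whole KO range, and the log2 fold change was 0.21 (SE 0.162, adjusted p = 0.455 in edgeR). Pklr, the pyruvate kinase of liver, red cells and proximal tubule, lay the other way at -0.41 (SE 0.246). Pfkl had 51.6 ± 2.07 CPM in KO and 56.8 ± 6.46 CPM in control kidneys (SD, n = 5 each), a log2 fold change of -0.14 (SE 0.0816, adjusted p = 0.341 in edgeR). Hk3 had a log2 fold change of 0.54 (SE 0.235, adjusted p = 0.209 in edgeR) on 21 counts in its lowest Myc kidney. The summed level of 6 neutrophil markers was 148 to 278 CPM in Myc KO and 47.3 to 242 CPM in Myc control kidneys. All 6 lay above 0, with a median log2 fold change of 0.65. The summed level of 5 endothelial markers was 588 to 805 CPM against 431 to 705 CPM. All 6 markers of thick limb and distal tubule (median 0.20) and all 4 of podocytes (median 0.34) lay above 0 too. Below 0 were 4 of 6 macrophage, 3 of 10 proximal tubule, 2 of 6 collecting duct and 2 of 6 injured tubule markers. Those of injured tubule had a median of 0.257. Their summed level was 16493 to 26060 CPM in KO and 14128 to 22689 CPM in control kidneys. The part of these cell types in the values of the hexokinases and Pfkfb3 was not tested.

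The reversible steps and the lactate enzymes were mostly below 0 in Myc KO kidneys, each by a small amount. Of the 11 genes of the reversible steps 10 lay below 0, with a median of -0.17 and a range from -0.33 to 0.13, and 0 passed in edgeR (1 at an unadjusted p under 0.05), in DESeq2 or in limma voom. The lowest was Gapdh, at 36.0 ± 3.52 CPM in KO and 45.3 ± 7.28 CPM in control kidneys (SD, n = 5 each), with a log2 fold change of -0.33 (SE 0.113, adjusted p = 0.134 in edgeR), from the reads that do not match its copies. Eno2, the neuronal enolase, was the 1 gene above 0. Ldha had 428, 405, 382, 367 and 376 CPM in Myc KO and 388, 424, 404, 523 and 456 CPM in Myc control kidneys. The groups overlapped, and the log2 fold change was -0.16 (SE 0.0935, adjusted p = 0.322 in edgeR). Ldhb and Ldhd stood at -0.10 each (SE 0.105 and 0.180).

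**Figure D2:**
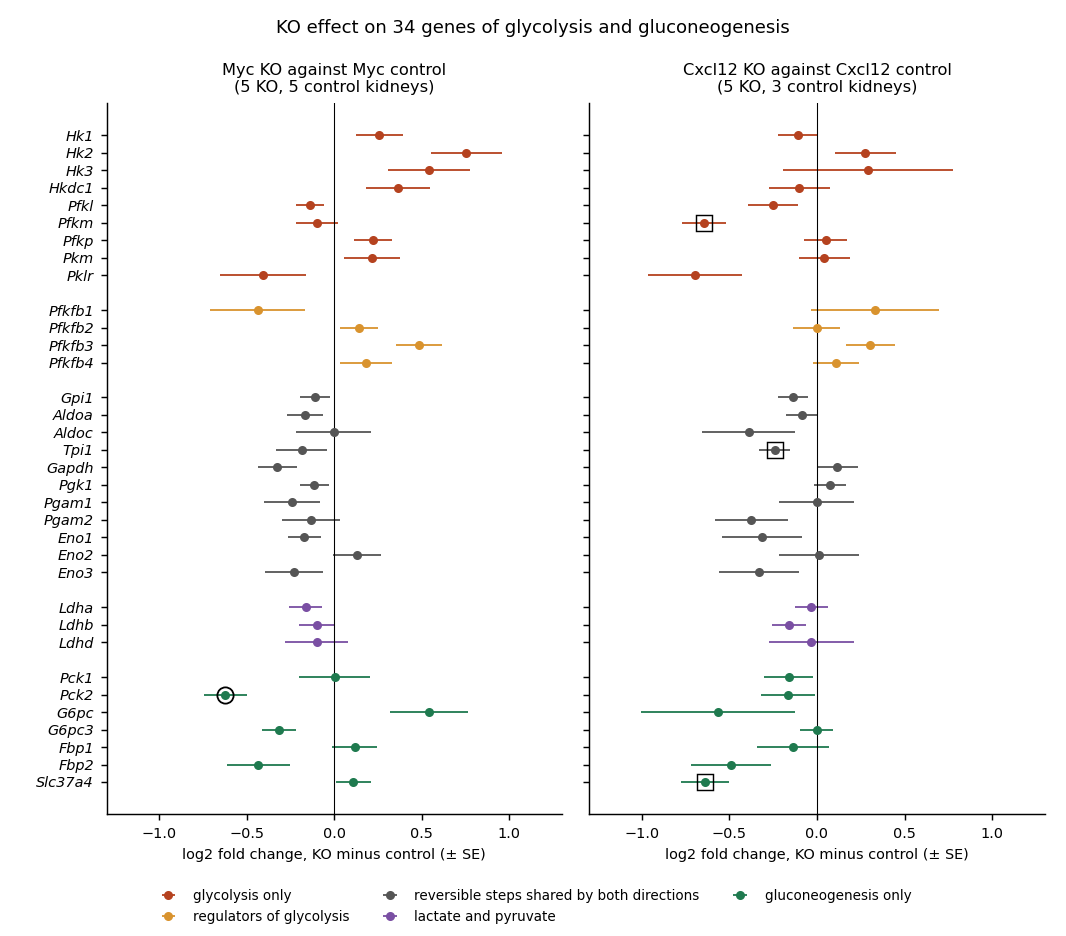
Log2 fold change of KO against control (horizontal axis, bars give the standard error) for the 34 genes, ordered and coloured by role, in the Myc cohort (left, 5 KO and 5 control kidneys) and the Cxcl12 cohort (right, 5 KO and 3 control kidneys). The ring marks Pck2 in the Myc cohort, at -0.62 the 1 gene with an adjusted p under 0.05 in edgeR, and squares mark Pfkm, Tpi1 and Slc37a4 in the Cxcl12 cohort, whose KO kidneys all lay below the controls without passing that threshold.

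The second comparison asked the same of Cxcl12 KO and Cxcl12 control kidneys. Most of the 34 genes were measured a little lower in Cxcl12 KO kidneys, and 0 of them passed in edgeR (4 at an unadjusted p under 0.05, all lower in KO), beside 0% of all 15154 genes tested. The 4 genes are 11.8% of the 34, against 13% of all genes at that unadjusted threshold. DESeq2 called 2 of the 34 genes, Pfkm and Slc37a4, and limma voom called 0. Among all genes DESeq2 also called many more than edgeR here, with the counts given in the closing section. Of the 34 genes 24 lay below 0, with a median log2 fold change of -0.10, beside 49.8% below 0 and a median of 0.00083 for all genes. The KO kidneys of 3 genes lay below all controls without overlap, where 4.87% of all genes did so, and 0 lay above, where 4.76% of all genes did so.

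Pfkm had 17.3, 17.1, 21.3, 15.5 and 15.4 CPM in the 5 Cxcl12 KO kidneys and 30.7, 26.5 and 23.9 CPM in the 3 Cxcl12 control kidneys. Every KO kidney lay below every control kidney. The log2 fold change was -0.64 (SE 0.126, adjusted p = 0.0937 in edgeR and 0.00164 in DESeq2), and the exact permutation p over 56 splits was 0.0179, the smallest this design allows. In the 3 KO and 3 control kidneys with at least 5% unmapped reads the log2 fold change was -0.65 for Pfkm and -0.64 for Slc37a4. Neither passed there, with adjusted p of 0.134 and 0.136 in edgeR. The per-length share of Pfkm in the 3 phosphofructokinases ran from 20.9% to 27.4% over the KO kidneys, with a mean of 24.3%. Over the controls it ran from 29.7% to 32.2%, with a mean of 31.3%. The summed level of 4 skeletal muscle markers was 0.494 to 4.52 CPM in Cxcl12 KO and 8.06 to 23.4 CPM in Cxcl12 control kidneys, each of the 4 without overlap, and Ckm, the muscle creatine kinase, was at 0.179 ± 0.205 CPM and 1.78 ± 0.716 CPM. Pgam2, Eno3 and Fbp2, muscle types of their enzymes, also lay below 0 without passing, at -0.37 (SE 0.210), -0.33 (SE 0.227) and -0.49 (SE 0.228). In the Myc cohort these genes lay below 0 too, at -0.13 (SE 0.166), -0.23 (SE 0.167) and -0.43 (SE 0.180). The summed muscle markers there were 0.5 to 8.73 CPM in Myc KO and 0.497 to 2.42 CPM in Myc control kidneys. The part of the muscle markers in these values was not tested.

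Slc37a4 had 105, 83.2, 112, 80.6 and 92.1 CPM in Cxcl12 KO and 153, 120 and 169 CPM in Cxcl12 control kidneys. The groups did not overlap, with KO replicate 3 and control replicate 2 nearest to each other. The log2 fold change was -0.64 (SE 0.136, adjusted p = 0.0992 in edgeR and 0.00322 in DESeq2). All 7 genes of gluconeogenesis lay below 0 in this cohort, with a median of -0.17 and a range from -0.64 to -0.0026. Beside them, 9 of 10 proximal tubule markers lay below 0 with a median log2 fold change of -0.30. Their summed level was 5552 to 6509 CPM in KO and 6678 to 7984 CPM in control kidneys. All 6 markers of thick limb and distal tubule (median -0.30) and all 5 of fibroblast and smooth muscle (median -0.31) lay below 0 too. Below 0 were also 3 of 6 collecting duct, 1 of 5 endothelial and 0 of 4 podocyte markers. The part of these shifts in the values of the gluconeogenic genes was not tested. Of 6 markers of injured tubule 5 lay above 0, with a median of 0.61 and summed levels of 14073 to 22183 CPM in KO and 11351 to 12847 CPM in control kidneys. All 6 neutrophil markers lay above 0, 4 of them without overlap, with a median of 1.69 and summed levels of 32.5 to 143 CPM and 20.1 to 28.3 CPM. Their part in the values of the 34 genes was not tested either.

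G6pc had 279, 91.9, 214, 88.5 and 89.2 CPM in Cxcl12 KO and 192, 121 and 364 CPM in Cxcl12 control kidneys. The spread within each group exceeded the difference of the means, and the log2 fold change was -0.56 (SE 0.439, adjusted p = 0.607 in edgeR). It was -0.90 without KO replicate 1, -0.86 without control replicate 2 and -0.039 without control replicate 3. Pck1 had 3286, 2371, 3355, 2883 and 3274 CPM in KO and 2958, 3514 and 3705 CPM in control kidneys, with a log2 fold change of -0.16 (SE 0.139, adjusted p = 0.647 in edgeR). Fbp1 had 388, 364, 500, 422 and 696 CPM in KO and 517, 426 and 624 CPM in control kidneys, with KO replicate 5 the highest of all. Its log2 fold change was -0.14 (SE 0.205, adjusted p = 0.805 in edgeR). Pck2 did not stand apart in this cohort, at a mean of 26.9 CPM over the KO kidneys (SD 4.24) and 30.2 CPM over the controls (SD 5.75).

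Tpi1, the triose phosphate isomerase of the reversible steps, had 330, 339, 352, 380 and 373 CPM in Cxcl12 KO and 409, 406 and 443 CPM in Cxcl12 control kidneys, again without overlap. Its log2 fold change was smaller, -0.24 (SE 0.0883, adjusted p = 0.296 in edgeR). Of the 11 genes of the reversible steps 8 lay below 0 with a median of -0.14. Of the 9 genes of glycolysis only 5 lay below 0, with a median of -0.10, and the lowest was Pklr with means of 42.4 CPM over the KO kidneys (SD 13.3) and 68.9 CPM over the controls (SD 19.2), a log2 fold change of -0.70 (SE 0.266, adjusted p = 0.316 in edgeR). Pkm, Hk1 and Hk2 had log2 fold changes of 0.041 (SE 0.146), -0.11 (SE 0.115) and 0.28 (SE 0.173), and Pfkl one of -0.25 (SE 0.142). Ldha had 467, 414, 432, 497 and 431 CPM in KO and 468, 426 and 482 CPM in control kidneys, so the groups lay on top of each other at -0.033 (SE 0.0953). Pfkfb3 stood at 0.31 (SE 0.142, adjusted p = 0.391 in edgeR).

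**Figure D3:**
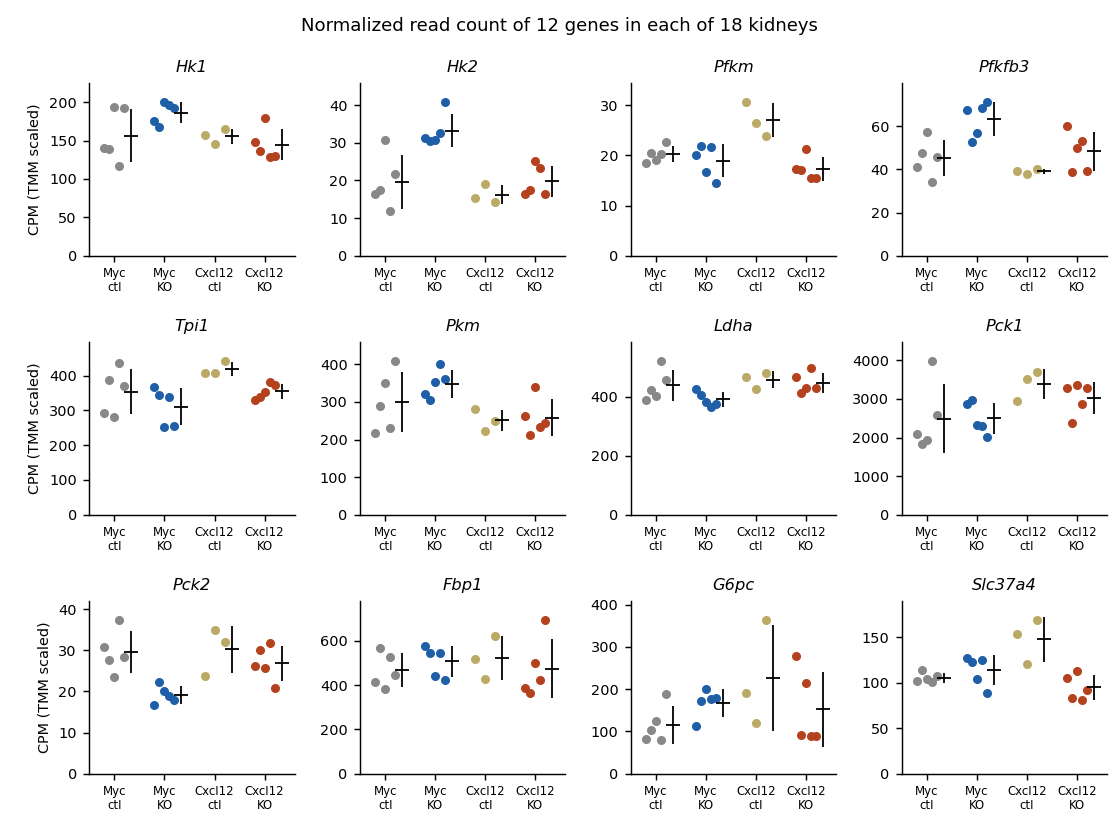
CPM scaled by TMM within each cohort (vertical axis, from 0) of 12 of the genes in every kidney, one point per kidney, with the mean and SD of each group as a black cross bar and line. Pck2 separates Myc KO from Myc control kidneys, Pfkm, Tpi1 and Slc37a4 separate Cxcl12 KO from Cxcl12 control kidneys, and for Hk2 and Pfkfb3 Myc control replicate 3, at 30.7 and 57.4 CPM, lies within the range of the Myc KO kidneys.

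Whether the KO effect itself differed between the cohorts was tested over all 18 kidneys. Of the 34 genes 0 passed in edgeR (6 at an unadjusted p under 0.05, or 17.6%, against 11.4% of all genes), where 0.0692% of the 15903 genes tested did so, limma voom called 0 of them and DESeq2 called 1. That gene was Slc37a4, whose Myc KO effect exceeded its Cxcl12 KO effect by 0.74 log2 units (SE 0.172). Its adjusted p was 0.0756 in edgeR and 0.00744 in DESeq2. Over all genes, too, DESeq2 called many more than edgeR for this difference. For Pck2, called in the Myc cohort and not in the Cxcl12 cohort, the effects differed by -0.46 (SE 0.207, adjusted p = 0.403 in edgeR), so a difference between the cohorts was not shown. For Pfkm the difference was 0.54 (SE 0.180, adjusted p = 0.215 in edgeR) and for G6pc 1.10 (SE 0.519, adjusted p = 0.429 in edgeR). With single kidneys left out the G6pc difference ran from 0.571, without Cxcl12 control replicate 3, to 1.44, without Cxcl12 KO replicate 1.

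The genes of glycolysis only were then set against those of gluconeogenesis only. For each kidney the mean log2 CPM of the 9 glycolytic genes was lowered by that of the 7 gluconeogenic genes, as a description without a test. In the Myc cohort this difference averaged -1.5 over the 5 KO kidneys (SD 0.125) and -1.78 over the 5 controls (SD 0.238). In the Cxcl12 cohort it averaged -2.01 over the 5 KO kidneys (SD 0.154) and -2.17 over the 3 controls (SD 0.282). In the Myc cohort KO exceeded control by 0.28 log2 units, of which 0.21 came from a higher glycolytic mean and the rest from a gluconeogenic mean of -0.072 relative to control. In the Cxcl12 cohort KO exceeded control by 0.16, with both means lower in KO, the glycolytic by -0.15 and the gluconeogenic by -0.31. The kidneys of KO and control overlapped in both cohorts. With the median over genes in place of the mean the differences turned, to -0.40 in the Myc cohort and -0.052 in the Cxcl12 cohort, and without Cxcl12 control replicate 3 the Cxcl12 value was -0.0054.

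**Figure D4:**
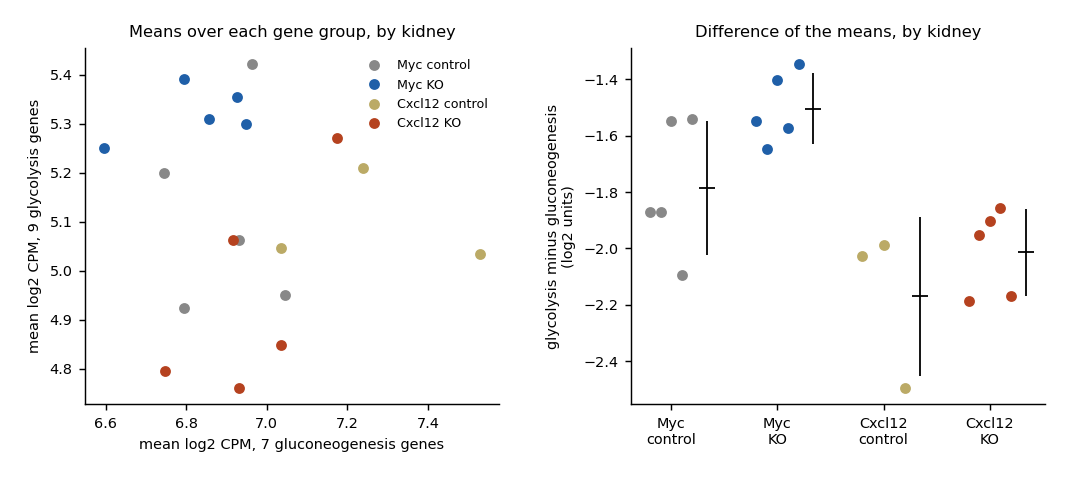
Left, mean log2 CPM of the 9 genes of glycolysis only (vertical) against that of the 7 genes of gluconeogenesis only (horizontal), one point per kidney in 4 groups. Right, the difference of the means for each kidney in log2 units, with the mean and SD of each group in black; group means run from -2.17 in Cxcl12 control to -1.5 in Myc KO kidneys, and KO and control points overlap in both cohorts.

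Eno1, the main enolase, was counted very differently in the 2 cohorts, and was chosen for display after its values were seen. Scaled over all 18 kidneys, it ran from 46.8 to 67.7 CPM in the 10 Myc cohort kidneys and from 91.6 to 191 CPM in the 8 Cxcl12 cohort kidneys, without overlap. Its copy Eno1b matches the Eno1 transcript with 99.5% identity over 1736 bases, so a read can be assigned to one of them only where their sequences differ. Eno1b was at 14.9 to 21.5 CPM in the Myc cohort kidneys. In the Cxcl12 cohort it was at 0.132 and 0.222 CPM in KO replicates 1 and 4 and at 0.663 and 0.376 CPM in control replicates 1 and 2, on 3 to 12 counts, and at 8.61 to 10.2 CPM in KO replicates 2, 3 and 5 and control replicate 3. The kidneys with the lowest Eno1b had the highest Eno1, at 147 to 191 CPM, and those between had 91.6 to 118 CPM. Summed over both genes, the level ran from 63.9 to 85.3 CPM in the Myc cohort and from 100 to 191 CPM in the Cxcl12 cohort, again without overlap. The cause of this pattern was not tested. It is found in both KO and control kidneys of the Cxcl12 cohort, but not in equal shares. The KO effect on Eno1 there cannot be fully told apart from it. The KO effect on Eno1 was -0.31 (SE 0.228, adjusted p = 0.581 in edgeR) in the Cxcl12 cohort and -0.17 (SE 0.0951, adjusted p = 0.310 in edgeR) in the Myc cohort.

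**Figure D5:**
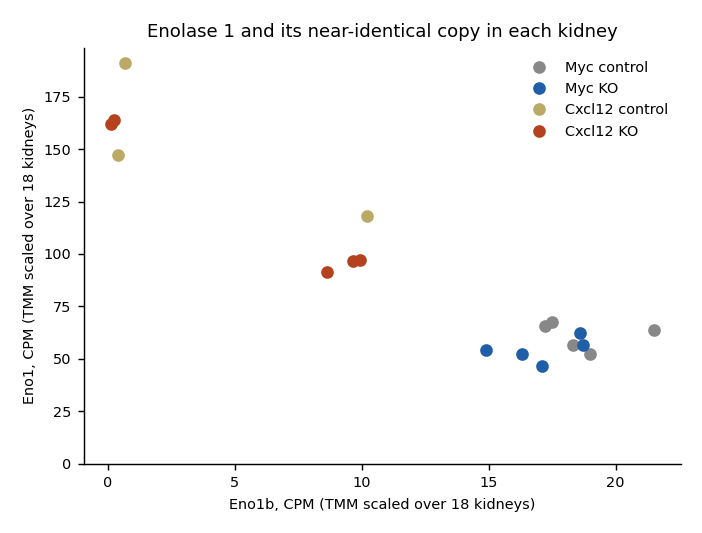
Eno1 (vertical axis) against its near-identical copy Eno1b (horizontal axis) in CPM scaled over all 18 kidneys, one point per kidney in 4 groups. The 10 Myc cohort kidneys lie together at the lower right with 14.9 to 21.5 CPM of Eno1b, and the 8 Cxcl12 cohort kidneys lie in 2 places, near 0 and at 8.61 to 10.2 CPM of Eno1b.

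Other genes around the pathway gave few calls. Of 16 tested neighbours of the route, such as the malate and glycerol 3-phosphate shuttles, 1 fell in Myc KO kidneys in edgeR, where 1.65% of all genes passed (6 of the 16 at an unadjusted p under 0.05, 3 in DESeq2 and 1 in limma voom). This was Adpgk, the ADP-dependent glucokinase, which had 28.5 ± 1.37 CPM in KO and 36.5 ± 1.52 CPM in control kidneys (SD, n = 5 each) and a log2 fold change of -0.36 (SE 0.0661, adjusted p = 0.0251 in edgeR). The call was lost with either stranded column, in kidneys with at least 5% unmapped reads, with the replicate block and without KO replicate 2, 3 or 4 or control replicate 2. Of the 16, 0 passed in edgeR in the Cxcl12 cohort (6 at an unadjusted p under 0.05, 1 in DESeq2, 0 in limma voom). Of 12 sugar and monocarboxylate transporters and of 11 genes that gate the entry of pyruvate into mitochondria, 0 passed in either cohort in edgeR or limma voom. At an unadjusted p under 0.05 in edgeR there were 3 transporters and 0 gate genes in the Myc cohort and 6 of each in the Cxcl12 cohort, where 21.9% and 13% of all genes did so in the Myc and the Cxcl12 fits. DESeq2 called 1 transporter in the Myc cohort, 4 transporters in the Cxcl12 cohort and no gate gene. Over all genes it also called many more than edgeR in both cohorts. Among the transporters Slc2a2, the GLUT2 carrier through which proximal tubule cells release glucose, averaged 68.0 CPM over the Cxcl12 KO kidneys (SD 22.2) and 178 CPM over the Cxcl12 controls (SD 61.9), without overlap. Its log2 fold change was -1.38 (SE 0.273, adjusted p = 0.0942 in edgeR), and it was chosen for mention after its values were seen.

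The promoters of the 34 genes were searched for the E-box CACGTG that MYC binds and for ACGTG, the core of the hypoxia response element, on both strands. All 34 genes matched RefSeq windows of 250 bases before to 50 bases after a transcript start on GRCm38.p6, 54 windows in all. CACGTG contains ACGTG, so each match of the longer motif is also one of the shorter. CACGTG was found in 13% of these windows and in 7.15% of all 32851 windows, and ACGTG in 37.0% and 19.6%. The 7 genes with CACGTG in a window were Fbp2, G6pc3, Ldha, Ldhd, Pfkfb2, Pfkfb3 and Pfkm, 20.6% of the 34 genes against 8.09% of all 27025 genes. The 34 genes all code for protein and passed the count filter, and the 27025 were filtered by neither. The 34 genes also have more windows per gene, which can raise a share per gene. The median log2 fold change of the 7 genes in Myc KO kidneys was -0.10, with 5 of 7 below 0. That of the 27 genes without the motif was -0.099, with 15 of 27 below 0. The windows below show Pck2, the gene that fell in Myc KO kidneys and whose window holds neither motif, beside 3 genes with CACGTG that went in different directions without passing in edgeR, G6pc3 at -0.31, Pfkfb3 at 0.48 and Ldha at -0.16. They are written 5′ to 3′ along each gene, with every match of either motif in capitals. A match is a description of the letters and not a bound site.
Pck2, chr14:55540016-55540315, plus strand: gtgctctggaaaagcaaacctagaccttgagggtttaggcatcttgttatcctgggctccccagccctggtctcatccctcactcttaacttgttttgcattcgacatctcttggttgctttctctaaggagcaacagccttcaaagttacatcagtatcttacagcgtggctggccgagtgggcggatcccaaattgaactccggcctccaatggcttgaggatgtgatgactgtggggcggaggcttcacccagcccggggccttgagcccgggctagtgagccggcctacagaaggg
G6pc3, chr11:102189449-102189748, plus strand: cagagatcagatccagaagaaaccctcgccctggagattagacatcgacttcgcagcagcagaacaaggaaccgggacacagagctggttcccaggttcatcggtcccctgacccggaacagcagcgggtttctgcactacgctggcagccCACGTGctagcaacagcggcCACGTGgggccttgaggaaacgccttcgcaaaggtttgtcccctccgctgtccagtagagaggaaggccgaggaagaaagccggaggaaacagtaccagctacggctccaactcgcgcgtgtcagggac
Pfkfb3, chr2:11502041-11502340, minus strand: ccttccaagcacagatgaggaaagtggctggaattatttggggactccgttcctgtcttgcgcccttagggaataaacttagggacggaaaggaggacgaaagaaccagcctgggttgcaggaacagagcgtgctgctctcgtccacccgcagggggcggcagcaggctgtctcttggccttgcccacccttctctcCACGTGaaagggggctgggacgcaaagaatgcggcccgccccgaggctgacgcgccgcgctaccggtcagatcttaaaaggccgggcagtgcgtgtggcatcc
Ldha, chr7:46845554-46845853, plus strand: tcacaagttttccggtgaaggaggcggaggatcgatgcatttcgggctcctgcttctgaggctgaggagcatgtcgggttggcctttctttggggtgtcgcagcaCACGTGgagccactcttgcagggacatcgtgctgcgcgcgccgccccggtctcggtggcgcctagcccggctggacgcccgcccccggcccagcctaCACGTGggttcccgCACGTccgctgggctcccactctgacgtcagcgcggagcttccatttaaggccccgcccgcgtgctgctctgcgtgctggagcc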

How the data were processed

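Whole injured kidneys of 4 genotype groups, as the labels give them, were sequenced at one library per mouse. The authors trimmed reads with Trimmomatic 0.32, aligned them to GRCm38 with STAR 2.4.0 and deposited raw read counts per gene, not normalized, from uniquely mapped reads. The column that ignores strand was used, since each stranded column held about as many reads as the other. The annotation release is not given in the sources used here. Of 45706 gene identifiers, 45143 matched GENCODE vM21, which gave symbols, positions and exon lengths. The methods describe a batch correction, but no batch is named in the labels and none was applied here.

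Genes were filtered per cohort (filterByExpr), libraries scaled (TMM) and KO and control compared by edgeR's quasi-likelihood test (version 4.0.16, R 4.3.3), with Benjamini-Hochberg adjustment over all genes tested and a threshold of 0.05. The difference of the KO effects was fitted over all 18 kidneys. The SE of a log2 fold change in edgeR is its absolute value divided by the square root of the test's F statistic. Log2 CPM used a prior count of 2. Near-identical copies were transcripts matching by BLAST over at least 100 bases at 97% identity or more. Alternatives used DESeq2 1.42.0, which gave no adjusted p for Hk3 and Pfkfb1 in the Myc cohort, limma 3.58.1, other scalings, filters and columns, the mapping group as a term, and each kidney left out. The fits were tested on simulated data with known changes. Depth of 12918220 to 29749500 reads per kidney sets the counting error. Intervals over mice rest on 3 to 5 kidneys per group. Single genes were also compared by a two-sided exact permutation test.

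The 34 genes, the other lists and the promoter motifs were chosen with earlier results of these data known. Of the 34 genes, those with an adjusted p under 0.05 in a cohort, or with KO and control not overlapping, were given kidney by kidney there. Hk1, Hk2, Pkm, Ldha, Pck1, G6pc and Fbp1 were given so in the Myc cohort, the Cxcl12 cohort or both. Pfkl, which was also planned for this, is given by mean and SD or by log2 fold change. Others are given by mean and SD, log2 fold change, range or count. Listed genes outside the 34 are named where their adjusted p was under 0.05, and the targeted genes Myc and Cxcl12 in any case. Exceptions are stated where they occur, and some neighbouring genes are not reported here.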

Additional observations from a re-analysis of the deposited data

Results flagged for a closer look

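One value stood far from the rest of its group among the 45 groups of values examined, and chance alone flags about 1 in 20 such groups. Hk2 in Myc KO replicate 5 was at 40.9 CPM, while the other 4 Myc KO kidneys lay between 30.5 and 32.6 CPM. Without that kidney the log2 fold change of Hk2 in Myc KO was 0.67 in place of 0.75.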

How the results depend on the processing

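In the Myc cohort, the 246 genes called, and the 1 of the 34 genes, became 1139 and 4 with DESeq2, 954 and 4 with the mapping group as a term (Pck2, G6pc3, Hk2 and Pfkfb3 in both), 8 and 0 in kidneys with at least 5% unmapped reads, and 18 and 0 with a replicate block. DESeq2 started from the same 14936 genes as the main fit. With the first stranded column 0 of the 34 genes were called. Leaving out single kidneys gave 21 to 877 genes, the highest without control replicate 3, and 0 to 3 of the 34 genes. The 1 called gene among the other genes of the pathway became 4 with DESeq2 and with the mapping term, 0 with either stranded column, in the kidneys with at least 5% unmapped reads and with the replicate block, and 0 to 4 with single kidneys left out.

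In the Cxcl12 cohort, 0 called genes became 214 without a filter, 355 with DESeq2, 9 with the first stranded column, 123 with the mapping term, 80 in kidneys with at least 5% unmapped reads and 0 to 15 with single kidneys left out. DESeq2 started in this cohort from the same 15154 genes as the main fit. Of the 34 genes 2 were called without a filter and with DESeq2, in both cases Pfkm and Slc37a4. Of the other pathway genes 5 were called without a filter and with DESeq2, and 2 with the mapping term and in kidneys with at least 5% unmapped reads. For the difference between the cohorts, 11 called genes became 314 with DESeq2, 3 with limma voom, 4 and 7 with the stranded columns, 133 with the mapping term, 44 in kidneys with at least 5% unmapped reads and 1 to 75 with single kidneys left out. For this difference DESeq2 started from the same 15903 genes as the main fit. Of the 34 genes Slc37a4 was called there with DESeq2 and without Myc KO replicate 5, a count of 0 to 1.

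Effects near 0 changed sign. Pfkm in Myc KO was 0.0143 in kidneys with at least 5% unmapped reads. Pck1 in Myc KO was -0.00417 without a filter, -0.0341 in kidneys with at least 5% unmapped reads and -0.0894 to 0.238 with single kidneys left out. Pkm in Cxcl12 KO ran from -0.0763 to 0.13 and Fbp1 from -0.323 to 0.00211 with single kidneys left out, and Fbp1 was 0.0474 with the mapping term and 0.0407 in kidneys with at least 5% unmapped reads. The glycolytic minus gluconeogenic difference of Myc KO and control was -0.402 with the median over genes. With Eno1 and Eno1b counts summed, an alternative chosen after seeing the data, the effect on Eno1 was -0.16 in the Myc cohort and -0.284 for Cxcl12. The replicate block paired kidneys by number, which is a number only. Kidneys of equal number deviated together with r between -0.157 and 0.378 in the Myc cohort and between -0.033 and 0.143 in the Cxcl12 cohort, and Myc KO replicate 1 correlated better with control replicate 4 (r = 0.332) than with its own number. With the block 0 of the 34 genes were called in either cohort, and the adjusted p of Pck2 was 0.086. The cause of these changes was not tested. All kidneys with under 5% unmapped reads in the Cxcl12 cohort were KO, so there mapping, depth and genotype cannot be fully told apart.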
